A study of Danio rerio with 18 samples.

Results

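Cholesterol and fatty acid synthesis was followed here as a set of 34 listed zebrafish genes: the enzymes of the mevalonate pathway and of the sterol steps after it, the regulators SREBP, SCAP, INSIG and Mlxipl, the LDL receptors and a sterol carrier, and the enzymes that make and modify saturated fatty acids. Members were found by their symbol, or by the symbol without a final a or b, and 33 of the 34 symbols matched 35 of the 32520 gene IDs in the deposited tables. The symbol cyp51 found no ID. SQLE and ACLY each matched a pair of IDs, and the symbol table does not tell whether 1 of the SQLE IDs is a second paralog. Reads of such near copies can be split between the IDs, so each is given by its own ID and is uncertain to that extent. All 35 IDs passed the filter on low counts and were tested, and they enter every count, and 33 of them are shown singly.

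The study compared whole zebrafish larvae at 120 hours post fertilization (hpf) in 3 groups of 6 samples. They were untreated akr1a1a+/+ larvae, untreated akr1a1a-/- larvae, which lack an aldo-keto reductase that detoxifies acrolein (ACR), and akr1a1a+/+ larvae that were kept in ACR from 24 hpf. All carried the Tg(fli1:EGFP) reporter per the study's methods and, per the labels, were kept in E3 medium with PTU, which blocks pigment, and the mutants came from a single CRISPR/Cas9 line with a small deletion-insertion. Each sample was a pool of larvae of a clutch, so a value is a mean over many animals and tissues.

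The total estimated count per sample lay between 19878464 and 20463404. The akr1a1a estimated count was 47 to 69 in akr1a1a+/+ larvae, 57 to 76 in ACR-treated larvae and 6 to 15 in akr1a1a-/- larvae, which fits the labels. All 6 akr1a1a+/+ libraries were read on lane 2 and all 6 akr1a1a-/- libraries on lane 3, so lane and genotype cannot be told apart from these groups alone. Of the ACR-treated libraries, 3 were on each lane, replicates 1 to 3 on lane 2 and replicates 4 to 6 on lane 3. Lane and clutch therefore coincide within that group. In whole larvae, a lower level of a gene can also not be told apart from fewer cells that express it.

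Cells build cholesterol from acetyl-CoA through mevalonate, squalene and lanosterol, and fatty acids from the same acetyl-CoA through malonyl-CoA. When sterols in the endoplasmic reticulum membrane run low, SCAP carries the membrane-bound factor SREBP to the Golgi, where proteases release its active part, and INSIG holds the complex back when sterols are plentiful. In mammals, SREBP2 mainly drives sterol genes and the LDL receptor, SREBP1 mainly drives fatty acid genes, and ChREBP, the product of Mlxipl, responds to sugar. A larva at this age draws lipid from the last of its yolk and makes its own in liver, intestine and brain.

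**Figure D1:**
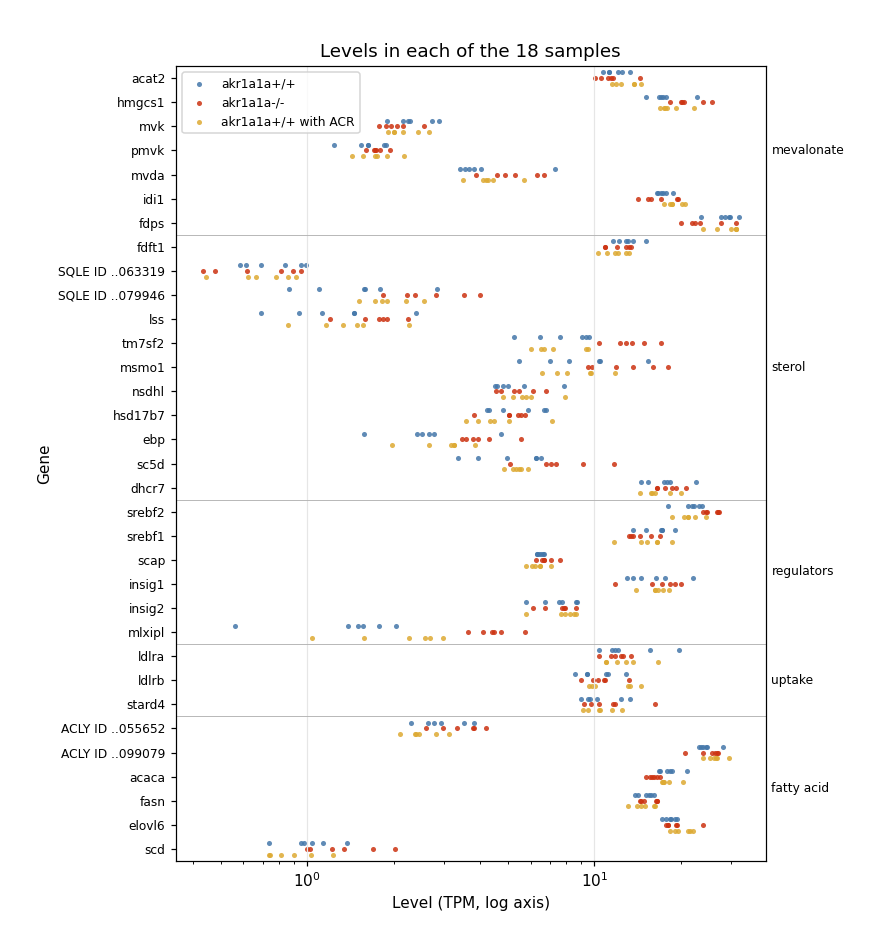
Level of 33 gene IDs on a log axis in TPM, a unit scaled by gene length and library, with 1 point for each of the 18 samples, coloured by group and grouped by role. The mean level in akr1a1a+/+ larvae ran from 0.777 TPM for the less abundant SQLE ID, ENSDARG00000063319, to 28.5 TPM for fdps, and the akr1a1a-/- points of mlxipl and tm7sf2 lie to the right of all points of both other groups.

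In untreated akr1a1a+/+ larvae, the TPM level differed widely within the same route. Among the enzymes of sterol synthesis, fdps, which makes farnesyl diphosphate, was at 28.5 ± 2.77 TPM (SD, n = 6), hmgcs1 at 17.9 ± 2.63 TPM and dhcr7, a reductase near the end of the route, at 17.7 ± 2.8 TPM. Squalene epoxidase and lanosterol synthase, which act in a row after squalene, were far lower: SQLE ENSDARG00000079946 stood at 1.63 ± 0.689 TPM and lss at 1.35 ± 0.596 TPM. Low levels were not limited to these steps, with pmvk of the mevalonate arm at 1.63 ± 0.231 TPM and ebp at 2.78 ± 1.05 TPM. Of the fatty acid enzymes, 4 IDs were at similar TPM levels, namely ACLY ENSDARG00000099079 at 24.7 ± 1.79, elovl6 at 18.4 ± 0.874, acaca at 18.3 ± 1.57 and fasn at 15.1 ± 0.934 TPM. The desaturase gene scd was near the bottom with 1.04 ± 0.215 TPM, and mlxipl had 1.47 ± 0.504 TPM. Of the SREBP genes, srebf2 was at 21.8 ± 1.99 TPM and srebf1 at 16.6 ± 1.87 TPM.

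In akr1a1a-/- larvae, 6 of the 35 IDs were higher than in akr1a1a+/+ larvae and none was lower at an adjusted p under 0.05 (edgeR quasi-likelihood test, adjusted over 23223 genes). They were mlxipl, srebf2 and 4 sterol enzymes acting after squalene: squalene epoxidase (SQLE ENSDARG00000079946), tm7sf2, ebp and sc5d. The share of members called was 17.1%, near the 16.2% of all genes called in this comparison, so the number by itself does not set the members apart. By direction, 8.19% of all genes were called higher and 7.96% lower. The median log2 fold change was 0.133 over the members and -0.001 over all genes, and 28 of the 35 members had a positive value against 49.8% of all genes.

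**Figure D2:**
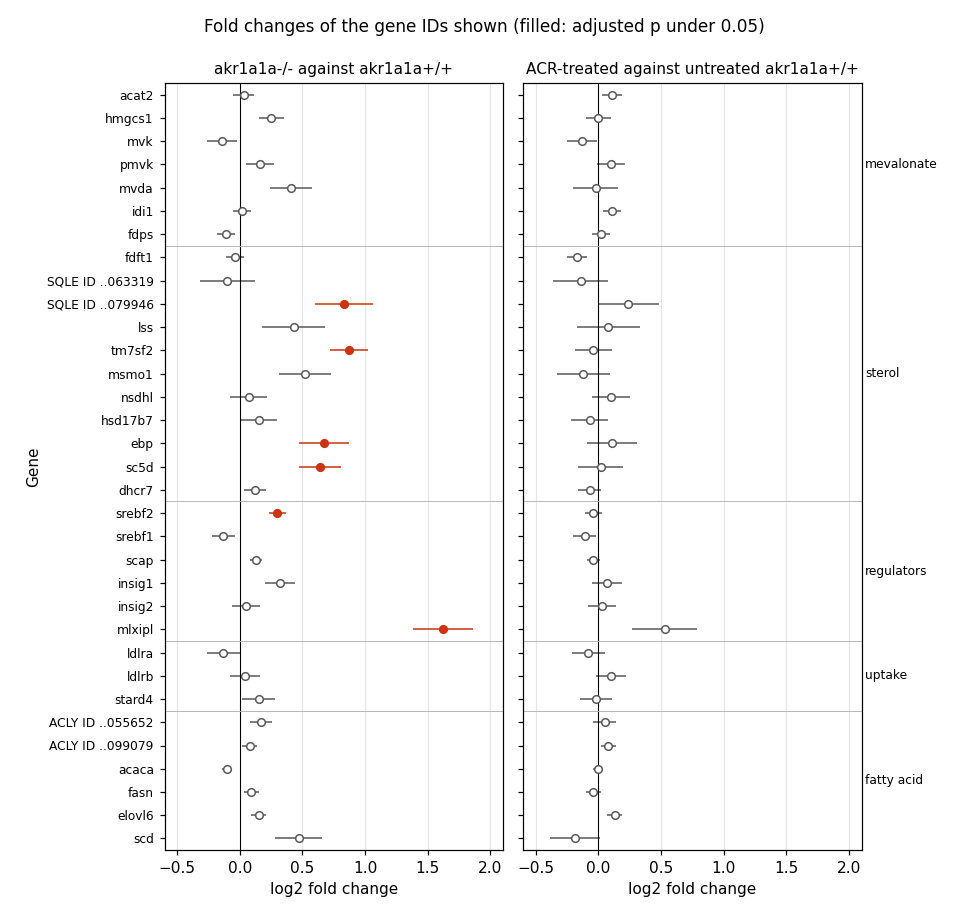
log2 fold change of 33 gene IDs with its standard error, for akr1a1a-/- against akr1a1a+/+ larvae (left) and for ACR-treated against untreated akr1a1a+/+ larvae (right), with filled points for an adjusted p under 0.05. On the left 6 points are filled, from 0.30 for srebf2 to 1.62 for mlxipl, and on the right none is.

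Among the regulators, the mRNA of mlxipl, which encodes the sugar-responsive factor ChREBP, was at 0.203, 0.522 and 0.648 CPM (counts scaled to a common library total; lowest, median and highest of 6 samples) in akr1a1a+/+ larvae and at 1.28, 1.50 and 1.87 CPM in akr1a1a-/- larvae. No sample of one group reached the other, and the gene rose by 1.62 ± 0.24 on the log2 scale (SE, adjusted p = 0.000126). It is a rare transcript, with estimated counts of 4 to 13 per akr1a1a+/+ library and 25 to 37.8 per akr1a1a-/- library. The 95% interval of the log2 fold change ran from 1.10 to 2.13. In akr1a1a+/+ larvae the mean of mlxipl was 0.496 CPM and 1.47 TPM, against 0.996 CPM and 1.04 TPM for scd. The length used for the mlxipl ID was thus short beside that of scd. Whether this ID covers the whole gene was not checked.

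The mRNA of srebf2, the SREBP gene that in mammals is tied to sterol synthesis, stood at 57.2, 72.2 and 75.3 CPM in akr1a1a+/+ larvae and at 78.2, 84.4 and 93.8 CPM in akr1a1a-/- larvae. These groups did not overlap either, although the rise was small, 0.30 ± 0.07 on the log2 scale (adjusted p = 0.00644). For both genes the exact two-sided permutation test of 6 against 6 samples gave p = 0.0022, the smallest it can give. Groups without overlap give this value, so it only restates the lack of overlap. Groups failed to overlap for 3 members, mlxipl, srebf2 and tm7sf2, and for 7.45% of all genes.

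The other SREBP gene, srebf1, went the other way without passing the test, from a median of 33.7 CPM (27.2 to 37.9) to 29.8 CPM (27.0 to 34.3), at a log2 fold change of -0.13 ± 0.09 and a 95% interval from -0.33 to 0.07. The sterol sensor and escort gene scap had a median of 18.6 CPM (17.7 to 19.4) in akr1a1a+/+ and 20.7 CPM (18.2 to 22.0) in akr1a1a-/- larvae, a log2 fold change of 0.13 ± 0.05 (adjusted p = 0.0977). Of the retention factors, insig1, which in mammals is itself an SREBP target, had 25.1 CPM (22.8 to 36.8) and 33.7 CPM (22.6 to 38.9), a log2 fold change of 0.32 ± 0.12 (adjusted p = 0.0743). Its mean in TPM differed less, at 16.2 ± 3.35 (SD) in akr1a1a+/+ and 17.1 ± 3.0 in akr1a1a-/- larvae. Its relative insig2 had nearly the same median in both groups, 5.26 CPM (4.15 to 6.25) and 5.50 CPM (4.43 to 6.07), and a 95% interval of its log2 fold change from -0.20 to 0.29.

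**Figure D3:**
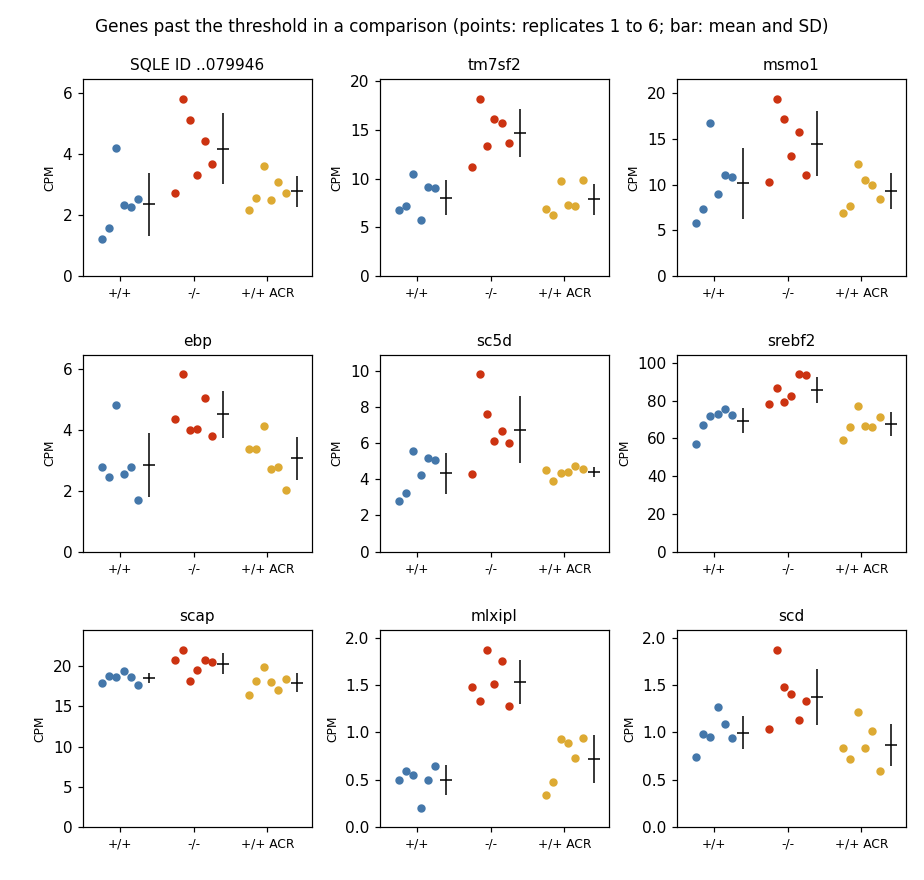
Level in CPM of the 9 genes that passed the threshold in at least 1 comparison with akr1a1a-/- larvae, for replicates 1 to 6 of each group from left to right, with the mean and SD as a black bar. For tm7sf2, srebf2 and mlxipl every akr1a1a-/- sample is above every sample of both other groups, whereas for SQLE ENSDARG00000079946, msmo1 and ebp the third akr1a1a+/+ sample stands among the akr1a1a-/- samples.

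Of the 9 IDs of the mevalonate arm, from acat2 to fdps, none was called in akr1a1a-/- larvae. At an unadjusted p under 0.05 there were 3 of them, against 6917 of all 23223 genes. DESeq2 and limma also called 0. A fit with the replicate number as a block called 2, hmgcs1 and mvda, though the numbers do not pair these groups. The values nearest to a call were hmgcs1, which makes HMG-CoA, with 0.25 ± 0.10 (adjusted p = 0.0833), and mvda, which makes isopentenyl diphosphate, with 0.41 ± 0.17 (adjusted p = 0.113). The kinases mvk and pmvk, the isomerase idi1, fdps and acat2 had log2 fold changes between -0.14 and 0.16.

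The sterol steps held 4 of the 6 calls among their 11 IDs, 36.4% against 16.2% of all genes, and their median log2 fold change was 0.43. The gene tm7sf2 encodes a sterol reductase that acts on the product of lanosterol demethylation. It was at 5.74, 8.11 and 10.5 CPM in akr1a1a+/+ and at 11.2, 14.7 and 18.2 CPM in akr1a1a-/- larvae. The groups did not overlap, from which the exact permutation p of 0.0022 follows. The gene rose by 0.87 ± 0.15 on the log2 scale (adjusted p = 0.000418).

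For SQLE ENSDARG00000079946, which carries the symbol of the enzyme that commits squalene to sterols, the values were 1.23, 2.30 and 4.20 CPM in akr1a1a+/+ and 2.72, 4.05 and 5.81 CPM in akr1a1a-/- larvae. The rise was 0.83 ± 0.23 on the log2 scale (adjusted p = 0.0195), but 3 of the 6 akr1a1a-/- samples lay within the akr1a1a+/+ range. That overlap came from a single akr1a1a+/+ sample, replicate 3, as the other akr1a1a+/+ samples reached at most 2.54 CPM. The other SQLE ID, ENSDARG00000063319, had 1.38 CPM (1.03 to 1.75) and 1.37 CPM (0.806 to 1.73), at a log2 fold change of -0.10 ± 0.22.

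The isomerase gene ebp had 1.69, 2.65 and 4.80 CPM in akr1a1a+/+ and 3.78, 4.19 and 5.81 CPM in akr1a1a-/- larvae, a rise of 0.67 ± 0.20 (adjusted p = 0.0255). The desaturase gene sc5d, whose product works next in the route, had 2.77, 4.65 and 5.55 CPM and 4.30, 6.39 and 9.79 CPM, a rise of 0.64 ± 0.17 (adjusted p = 0.0157). In both genes the groups overlapped, for ebp through a single akr1a1a+/+ sample, replicate 3, above which only 2 akr1a1a-/- samples lay. For sc5d they overlapped through a single akr1a1a-/- sample, replicate 1.

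Other sterol steps did not pass. The methyl oxidase gene msmo1 had 9.90 CPM (5.78 to 16.8) and 14.5 CPM (10.3 to 19.4), with 0.52 ± 0.21 on the log2 scale (adjusted p = 0.101), and lss had 0.43 ± 0.25 (adjusted p = 0.254). The values were smaller for nsdhl (0.07 ± 0.15), hsd17b7 (0.15 ± 0.15), dhcr7 (0.12 ± 0.09) and fdft1 (-0.04 ± 0.07), which forms squalene. CYP51A1, the ID with the human symbol of the lanosterol demethylase, is outside the matching rule and was looked up after the other values were seen. It had 23.7 CPM (16.7 to 43.5) and 34.4 CPM (23.6 to 49.2), a log2 fold change of 0.47 ± 0.22 (adjusted p = 0.152).

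Neither LDL receptor gene was called. The level of ldlra, the receptor that takes up cholesterol-rich lipoproteins, was 40.8 CPM (35.7 to 69.9) in akr1a1a+/+ and 44.2 CPM (38.0 to 46.4) in akr1a1a-/- larvae, at a log2 fold change of -0.13 ± 0.13, of opposite sign to the change in the median. For ldlrb it was 0.04 ± 0.12, and for the sterol carrier gene stard4 0.15 ± 0.13. None of these 3 reached an unadjusted p under 0.05, and DESeq2 and limma called 0.

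The fatty acid arm had no call among its 6 IDs either, and 0 by DESeq2. At an unadjusted p under 0.05 there were 3, against 6917 of all 23223 genes. Fatty acid synthase, fasn, was at 111 CPM (101 to 119) in akr1a1a+/+ and 117 CPM (110 to 130) in akr1a1a-/- larvae, and the 95% interval of its log2 fold change ran from -0.04 to 0.22. For acaca, the carboxylase that makes malonyl-CoA, the medians were 93.1 CPM (85.8 to 96.7) and 86.0 CPM (83.2 to 90.5), at a log2 fold change of -0.10 ± 0.04 (adjusted p = 0.145). This member was the only 1 called lower by any alternative, at an adjusted p of 0.0376 in limma's test of log2(TPM + 1). Over all genes that limma test called 2484 lower and 1210 higher, where edgeR called 1849 lower and 1903 higher. The ACLY IDs, which make cytosolic acetyl-CoA, had 0.17 ± 0.09 and 0.08 ± 0.06, and elovl6, which lengthens palmitate, had 0.15 ± 0.06. The desaturase gene scd had 0.966 CPM (0.741 to 1.27) and 1.37 CPM (1.04 to 1.87), with 0.47 ± 0.19 (adjusted p = 0.0963).

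Lane and single samples were checked beside these calls. With lane as a term, which the fit can only estimate from the ACR-treated samples on both lanes, 1 of the 6 members stayed past the threshold, ebp (log2 fold change 1.20, adjusted p = 0.0345), and 1498 genes in all were called in place of 3752. In those samples lane cannot be told apart from clutch. For ebp, treated replicates 1 to 3 were at 3.35, 3.38 and 4.11 CPM and 4 to 6 at 2.71, 2.76 and 2.02 CPM. Untreated akr1a1a+/+ replicates, all on lane 2, were at 2.77, 2.45 and 4.80 CPM (1 to 3) and 2.54, 2.76 and 1.69 CPM (4 to 6). The values of mlxipl (1.08, adjusted p = 0.118), tm7sf2 (0.78, adjusted p = 0.0781) and srebf2 (0.29, adjusted p = 0.158) kept their sign. Without akr1a1a+/+ replicate 3, 11 members were called, the same 6 together with hmgcs1, insig1, lss, msmo1 and mvda, and without akr1a1a-/- replicate 2 only 4 were, with SQLE ENSDARG00000079946 and ebp lost. Over the single-sample omissions, tm7sf2, sc5d, srebf2 and mlxipl stayed past the threshold in all 12, SQLE ENSDARG00000079946 in 11 and ebp in 7.

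The sterol enzymes varied together from sample to sample inside each group. In akr1a1a+/+ replicate 3, 19 of the 20 mevalonate and sterol IDs were above their group mean, by 0.43 on the log2 scale on average, and in the ACR-treated replicate 3 18 of 20 were, by 0.27. In akr1a1a-/- larvae replicate 2 stood highest, with 18 of 20 IDs above the mean and an average of 0.25. The mean log2 CPM of the 11 sterol IDs ran from 2.07 to 2.94 over akr1a1a+/+ samples, from 2.55 to 3.10 over akr1a1a-/- samples and from 2.24 to 2.75 over ACR-treated samples, so that replicate 3 of the akr1a1a+/+ group lay inside the akr1a1a-/- range while the other 5 were below its lowest sample.

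Taken over all 18 samples as deviations from the group means, pairs of sterol IDs had a mean correlation of 0.544, pairs of mevalonate IDs 0.325, pairs of fatty acid IDs 0.062 and pairs of any genes 0.000. The correlation between a sterol or mevalonate ID and a fatty acid ID averaged 0.037. These are descriptions over samples that share libraries and, between akr1a1a+/+ and ACR-treated larvae of a like number, possibly clutches. By the same measure, hmgcs1 and msmo1 followed the mean of the other sterol and mevalonate enzymes most closely (r = 0.93 each), with SQLE ENSDARG00000079946 at 0.91. CYP51A1, not itself in the mean, had r = 0.95, and the receptor ldlra 0.83.

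Paralogs parted in this respect. The receptor ldlrb had r = 0.31 against the 0.83 of ldlra, and insig2 had r = -0.10 against 0.59 for insig1. Among the fatty acid enzymes r ran from -0.26 for acaca to 0.48 for scd. The gene srebf2 had r = 0.50 and srebf1 r = 0.19. No test was made of any of these differences.

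ACR treatment of akr1a1a+/+ larvae was followed by no call among the 35 members, against 0.0258% of all genes, which is 6 genes. The same held in each of the alternatives run, including DESeq2, limma, the treated samples of either lane alone and the fits with the replicate number as a block. That block called 0.138% of all genes in the fit of all samples, and 137 of 22866 genes in the fit of these groups alone. At an unadjusted p under 0.05 in the main fit, without pairs, there was 1 member, fdft1, against 1259 of 23223 genes. It had 10.5 CPM (9.07 to 11.2) after ACR against 11.5 CPM (10.1 to 13.0) and a log2 fold change of -0.17 ± 0.08 (adjusted p = 0.909). The median log2 fold change of the members in that fit was -0.002, and 17 of 35 were positive. In the fit of these groups alone with the block, 6 members had an unadjusted p under 0.05, as did 3109 of 22866 genes. The adjusted p of fdft1 was 0.273 there.

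The largest value was that of mlxipl, with 0.345, 0.807 and 0.938 CPM after ACR and a log2 fold change of 0.53 ± 0.26 (adjusted p = 0.91). In 4 of the 6 treated samples it lay above the highest untreated sample. By lane, the treated samples were at 0.345, 0.482 and 0.930 CPM on lane 2 and at 0.887, 0.726 and 0.938 CPM on lane 3. Of the other genes past the threshold in akr1a1a-/- larvae, srebf2 had 66.3 CPM (58.9 to 77.3) after ACR, tm7sf2 7.21 CPM (6.22 to 9.88) and sc5d 4.44 CPM (3.91 to 4.75), and each of these ranges overlapped that of untreated larvae. The INSIG genes had 28.2 CPM (24.0 to 29.3) for insig1 and 5.51 CPM (4.0 to 6.11) for insig2, and SQLE ENSDARG00000063319 had 1.27 CPM (0.789 to 1.60). The level of srebf1 was 31.5 CPM (23.1 to 36.6), that of ldlra 42.5 CPM (37.5 to 57.1), that of fasn 108 CPM (95.3 to 120) and that of acaca 92.2 CPM (86.6 to 98.5). With treated and untreated samples matched by number, 2 members were higher in all 6 pairs, idi1 by 0.11 ± 0.09 (SD) and ACLY ENSDARG00000099079 by 0.08 ± 0.04 on the log2 scale. In the edgeR fit of these groups alone with the replicate block, neither was called (adjusted p = 0.262 and 0.322). At the other end, 4 members were higher in only 1 pair. The share of all genes higher in all 6 pairs was not counted.

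Whether the mutation and ACR differed in their effect was tested by comparing akr1a1a-/- with ACR-treated larvae directly, since both are set against the same untreated samples. In this test 7 members were higher in akr1a1a-/- larvae and none lower. Of all genes 13.8% were called, 6.46% higher and 7.29% lower. These were mlxipl (log2 fold change 1.09 ± 0.23, adjusted p = 0.00282), tm7sf2 (0.90 ± 0.15, adjusted p = 0.00029), srebf2 (0.34 ± 0.07, adjusted p = 0.00284), sc5d (0.62 ± 0.17, adjusted p = 0.0209), scd (0.65 ± 0.19, adjusted p = 0.0249), scap (0.18 ± 0.05, adjusted p = 0.0327) and msmo1 (0.64 ± 0.21, adjusted p = 0.0493). For the last 3 genes the ACR-treated levels were 0.838 CPM (0.593 to 1.22), 18.1 CPM (16.4 to 19.9) and 9.23 CPM (6.90 to 12.3).

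As in the comparison with untreated larvae, only mlxipl, tm7sf2 and srebf2 had groups without overlap in CPM, against 6.13% of all genes. In TPM the srebf2 groups overlapped, with a lowest akr1a1a-/- value of 23.9 and a highest ACR-treated value of 24.6. The ACR-treated replicates on lane 3, the lane of the akr1a1a-/- libraries, allow a comparison within that lane of 6 against 3 samples. It called 4 of the 35 members, and 2050 of the 23652 genes tested in that fit. The 4 were mlxipl, tm7sf2 and srebf2 again, and ebp, with the treated samples here being replicates 4 to 6 only. Adjusted p then lay above 0.05 for sc5d, scd, scap and msmo1, with 3 treated samples in place of 6, while their log2 fold changes were 0.57, 0.75, 0.19 and 0.59. With lane as a term, tm7sf2 and srebf2 of the 7 were called and ebp was gained. By limma on TPM, at both pseudocounts, only mlxipl, tm7sf2 and srebf2 of the 7 were called and ACLY ENSDARG00000055652 was gained. Without akr1a1a-/- replicate 2, sc5d, scd, scap and msmo1 were not called, and without ACR-treated replicate 2, scd, scap and msmo1 were not. Over the 12 fits that each left out 1 sample of these groups, msmo1 was called in 3, scap in 4, scd in 9 and sc5d in 11, and tm7sf2, srebf2 and mlxipl in all 12. SQLE ENSDARG00000079946 and ebp did not pass in this comparison (adjusted p = 0.0966 and 0.0636), with ACR-treated levels of 2.64 CPM (2.17 to 3.62) and 3.06 CPM (2.02 to 4.11).

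Genes around these pathways were read from lists of symbols, without the members. Some of these symbols also matched more than 1 ID, and the value of an ID does not stand for the other IDs of its symbol. Of 9 IDs listed by symbol for sterol synthesis beyond the members, 1 was higher and 1 lower in akr1a1a-/- larvae, 22.2% against 16.2% of all genes. These were HMGCLL1, named after its value was seen (0.86 ± 0.27, adjusted p = 0.038), and the acetoacetyl-CoA thiolase ACAT1 (-0.15 ± 0.04, adjusted p = 0.0193). The listing alone does not show that either acts in sterol synthesis. Neither was called with lane as a term (adjusted p = 0.331 and 0.0792). Of 15 IDs for SREBP activation and receptor turnover, 1 was called higher and 1 lower, 13.3% against 16.2% of all genes. With lane as a term, 1 of these 2 calls was kept. Over the 15 IDs, log2 fold changes ran from -0.37 to 0.98. The proteases MBTPS1 and MBTPS2, which cut SREBP, were at -0.01 ± 0.04 and -0.03 ± 0.06. The lower call was MYLIP ENSDARG00000008859, 1 of 2 IDs for a ligase that in mammals sends LDL receptors to be degraded (-0.37 ± 0.06, adjusted p = 0.000516). It was at 40.6 CPM in akr1a1a+/+ and 31.3 CPM in akr1a1a-/- larvae (medians), with no overlap.

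Of 24 tested IDs for the storage, export and use of sterols, 6 were lower and 3 higher in akr1a1a-/- larvae, 37.5% against 16.2% of all genes. Lower were NPC2 ENSDARG00000096979, 1 of 2 IDs for a lysosomal sterol carrier (-3.13 ± 0.48, adjusted p = 0.000158), LCAT, which esterifies cholesterol in plasma (-0.92 ± 0.18, adjusted p = 0.00164), and CYP27A1 ENSDARG00000055159 (-0.83 ± 0.25, adjusted p = 0.0282), whereas CYP27A1 ENSDARG00000088013 was higher (0.69 ± 0.16, adjusted p = 0.00643). CYP8B1 ENSDARG00000053068, of bile acid synthesis, was lower too (-0.60 ± 0.18, adjusted p = 0.029). With lane as a term, none of the 24 was called.

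Of 30 tested IDs for fatty acid synthesis and desaturation beyond the members, 8 were higher and 1 lower. The share called higher was 26.7%, against 8.19% of all genes. The largest was elovl8b, a fatty acid elongase (1.61 ± 0.35, adjusted p = 0.00385), at 3.48 CPM in akr1a1a+/+ and 9.70 CPM in akr1a1a-/- larvae (medians). The malic enzyme gene ME1, a source of NADPH, rose by 0.75 ± 0.10 (adjusted p = 3.09e-05), from 5.50 to 9.09 CPM. The elongation cycle was further represented by TECR ENSDARG00000101585 (0.45 ± 0.11, adjusted p = 0.0063) and hsd17b12b (0.40 ± 0.08, adjusted p = 0.00225), while mid1ip1a, which activates acetyl-CoA carboxylase in mammals, fell by 0.37 (adjusted p = 0.00408). With lane as a term, 4 of these 9 calls were kept. The call of ME1 was among them (adjusted p = 0.0219), and that of mid1ip1a was not (adjusted p = 0.158).

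Markers of lipid-handling tissues were counted beside these results, since the samples were whole larvae. All 12 hepatocyte IDs were tested, and in akr1a1a-/- larvae 2 were higher, tfa and serpina1, and 1 lower, RBP4, which is 25.0% called against 16.2% of all genes. Over the 12, 3 log2 fold changes were positive and the median was -0.082, and none of the 3 calls held with lane as a term. Their summed level was 4800 to 5850 CPM in akr1a1a+/+ and 5140 to 6040 CPM in akr1a1a-/- larvae. Of 10 enterocyte IDs 2 were higher and none lower, where 16.2% of all genes were called. Of the 10 log2 fold changes 6 were positive, and 1 of the 2 calls held with lane as a term. The enterocyte sums were 2960 to 4250 and 3410 to 3960 CPM. Of 6 tested yolk and yolk syncytial layer IDs, apoea and apobb.1 were higher (33.3%), and 1 of the 2 calls held with lane as a term. Only 3 of these 6 log2 fold changes were positive, and they ran from -0.35 to 1.03. The sums over all 7 matched yolk IDs were 5360 to 7350 and 6640 to 8770 CPM. Of 8 myelin IDs 1 was higher (12.5%) and 6 were positive, with sums of 241 to 260 and 247 to 297 CPM. Among 9 neuronal IDs 1 was higher (11.1%) but only 2 were positive, with sums of 2030 to 2270 and 1960 to 2130 CPM. Among 6 tested adipocyte IDs 1 was lower (16.7%) while 5 were positive. The sums over all 8 matched adipocyte IDs were 33.5 to 43.2 and 39.8 to 47.8 CPM. With lane as a term, the adipocyte call held and those of the myelin and neuronal IDs did not. The part of tissue make-up in the members' levels was not tested.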

How the data were processed

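RNA-Seq of 18 samples of zebrafish larvae was used. The submitters' processing notes name Trim Galore 0.6.4, kallisto 0.4.6 and the build GRCz11 without a role or order. The authors deposited estimated counts per gene, not normalized and not always whole, and TPM values, which the authors scaled by gene length and library. Symbols came from a table of gene IDs. Estimated counts were rounded and tested with edgeR 4.0.16 (R 4.3.3): TMM, filterByExpr, quasi-likelihood test, 1 mean per group over 18 samples, 15 residual degrees of freedom, Benjamini-Hochberg adjustment over 23223 genes, threshold 0.05, tested on simulated data. Standard errors are the log2 fold change over the square root of F. CPM used TMM-scaled totals. At this depth 3 counts were 0.145 to 0.154 CPM, and such limits cover counting error only. Permutation tests used mean log2 CPM (prior count 2). TPM served for levels between genes. The members and lists were chosen with earlier results of these data known. Members named with group values were those past the threshold in any comparison and 13 listed regulators and enzymes; of each list, at most 5 genes by size of change with a mean log2 CPM of at least 1 were named. Library pairs of a group differed by 4.62 to 22.2 in chi-square per degree of freedom, so none was a duplicate. Deviations from the group means of same-numbered akr1a1a+/+ and ACR-treated samples correlated at 0.249 to 0.603 over genes, all above 0.1, and these numbers were taken to pair them; those of akr1a1a+/+ and akr1a1a-/- samples (0.039 to 0.131) were not. Samples of a group are separate clutches by the study's methods. Alternatives were DESeq2's (1.42.0) size factors and Wald test, other count filters, limma (3.58.1) on log2(TPM + 1) and log2(TPM + 0.1), only the groups compared, a replicate block, a lane term, treated samples of 1 lane and each sample left out. Some genes that this rule takes are not reported here. A search of promoters for motifs was not run, as no sequences were used here.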

Additional observations from a re-analysis of the deposited data

Results flagged for a closer look

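In 105 groups of 6 samples (35 members in 3 groups), a sample stood apart from the other 5 in 9 by its distance to the nearest one relative to the range of the group, where chance gives about 1 in 20 such groups. Of these, 5 were akr1a1a+/+ replicate 3: hmgcs1 was at 49.7 CPM there against 31.4 to 37.8 in the others, mvda at 7.20 against 3.16 to 4.01, idi1 at 45.2 against 38.5 to 41.0, ebp at 4.80 against 1.69 to 2.77 and insig1 at 36.8 against 22.8 to 25.2 CPM. The ACR-treated replicate 3 stood apart for hmgcs1 as well, at 46.2 against 35.2 to 38.1 CPM. The remaining samples were spread over genes: insig1 in ACR-treated replicate 6 (24.0 against 27.7 to 29.3 CPM), mlxipl in akr1a1a+/+ replicate 4 (0.203 against 0.494 to 0.648 CPM) and elovl6 in akr1a1a-/- replicate 2 (32.8 against 24.4 to 26.9 CPM).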

How the results depend on the processing

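The members called in akr1a1a-/- against akr1a1a+/+ larvae numbered 6, with 1 under a lane term, 10 with a replicate block and 4 to 11 with single samples left out; the numbers do not pair these groups. For akr1a1a-/- against ACR-treated larvae they numbered 7, with 3 under the lane term, 13 with the replicate block, 4 with the treated samples of lane 3, 4 by limma at both pseudocounts and 3 to 9 with single samples left out (3 without akr1a1a-/- replicate 2). Of the 4 by limma, 3 were among the 7. No member was called for ACR in any alternative. Over all genes, the lane term gave 1498 in place of 3752 for the mutation and 1980 in place of 3194 against ACR-treated larvae (2050 with lane 3 alone). Single omissions gave 3097 to 3612 and 2728 to 3231. By limma the split of higher and lower genes for the mutation moved from 1903 and 1849 to 1210 and 2484, or 1168 and 2509 with the smaller pseudocount, and against ACR-treated larvae from 1500 and 1694 to 881 and 2594, or 842 and 2619, with a median log2 fold change of all genes from -0.05 to -0.07. For ACR against untreated larvae, 6 genes became 24 by DESeq2, 20 with the lane term, 2 by limma at both pseudocounts, 1 with the 2 groups alone, 32 with the replicate block, 137 with that block and the 2 groups alone (added after seeing the data), 13 with lane 2, 0 with lane 3 (708 at an unadjusted p under 0.05) and 3 to 10 with single omissions. Why these counts moved was not tested. No called member changed sign in any alternative, and mlxipl has no value where each sample had to hold 10 counts or more. At this depth, genes such as mlxipl and scd rest on fewer than 40 counts per library.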

Other observations

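The breakdown of fatty acids was read from a list of its own. Of 26 tested IDs, 7 were higher and 2 lower in akr1a1a-/- than in akr1a1a+/+ larvae, 34.6% called against 16.2% of all genes. Positive log2 fold changes numbered 20, and the values ran from -1.71 to 0.78. The peroxisomal oxidase ACOX3 rose by 0.54 ± 0.07 on the log2 scale (adjusted p = 3.04e-05). Higher among the mitochondrial genes were the thiolase ACAA2 (0.78 ± 0.18, adjusted p = 0.00615), the carnitine palmitoyltransferase cpt1ab (0.57 ± 0.11, adjusted p = 0.00134) and hadhaa (0.54 ± 0.09, adjusted p = 0.000347). With lane as a term, 8 of these 9 calls were kept. After ACR 0 were called by edgeR, DESeq2 or limma. In edgeR 1 had an unadjusted p under 0.05, as did 1259 of all 23223 genes. Yet 22 of the 26 log2 fold changes after ACR were positive, 84.6% against 50.4% of all genes, with a small median of 0.067. No test was made of this direction.

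Of 21 tested IDs for triglycerides and lipid droplets, 3 were higher and 3 lower in akr1a1a-/- larvae, 28.6% called against 16.2% of all genes. The lipid droplet gene FITM1 rose by 0.80 ± 0.09 (adjusted p = 5.48e-06), to a median of 15.9 CPM. The last step of triglyceride synthesis went both ways, with DGAT1 ENSDARG00000054914 lower by -0.46 ± 0.07 (adjusted p = 0.000113) and DGAT2 higher by 0.47 ± 0.15 (adjusted p = 0.0439). LPIN1 was lower as well (-0.32 ± 0.09, adjusted p = 0.0243). Of the 6 calls, 3 held with lane as a term, those of FITM1, DGAT1 and LPIN1, and DGAT2 was not called (adjusted p = 0.732).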
